A study of Mus musculus with 3 samples.

Results

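The let-7 family guide strands are the mature miRNAs mmu-let-7a-5p, mmu-let-7b-5p, mmu-let-7c-5p, mmu-let-7d-5p, mmu-let-7e-5p, mmu-let-7f-5p, mmu-let-7g-5p and mmu-let-7i-5p together with mmu-miR-98-5p, written below without the species prefix. They were taken by name from mouse miRNA arrays, on which all 9 were present with 18 probes, out of 1881 miRNAs and 4415 probes in all. The arrays measured RNA from exosomes of mesenchymal stem cells (MSCs), adherent stromal cells grown from the bone marrow of male wild-type C57BL/6 mice aged 4 to 6 weeks and used at passages 3 to 6. H+G-Exo came from MSCs held for 24 h in hypoxia with GW4869, an inhibitor of the neutral sphingomyelinase that feeds ceramide into vesicle budding, H-Exo from MSCs in hypoxia alone, and N-Exo from MSCs in normoxia. The dose of GW4869 and the oxygen level are not given in the sources used here. The growth medium of all groups held 10% fetal bovine serum, and whether serum was present while the medium was conditioned is not given either. Each group was 1 array, prepared from the medium of 10 dishes, so no p-value could be given, and ± marks the SD among the spots that carried the same probe on an array, so it covers technical error alone.

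let-7 was among the first miRNAs found, as a timer of larval development in worms, and in mammals its guide strands accumulate as cells differentiate. LIN28 proteins block the maturation of its precursors in stem cells, and the mature strands repress growth and proliferation genes such as Hmga2 and Myc. A guide strand finds its targets mainly through its seed, bases 2 to 8 from the 5′ end, so members with the same seed share predicted targets.

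The mature sequences show how little separates the members. Each is given 5′ to 3′ from RefSeq, where all 9 matched, with the seed in capitals.
let-7a-5p: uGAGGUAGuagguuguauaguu
let-7b-5p: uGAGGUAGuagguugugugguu
let-7c-5p: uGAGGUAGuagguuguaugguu
let-7d-5p: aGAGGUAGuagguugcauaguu
let-7e-5p: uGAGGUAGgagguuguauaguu
let-7f-5p: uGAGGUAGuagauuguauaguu
let-7g-5p: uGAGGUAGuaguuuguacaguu
let-7i-5p: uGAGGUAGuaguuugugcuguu
miR-98-5p: uGAGGUAGuaaguuguauuguu

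All 9 were 22 bases long and carried the same seed. Against let-7a, with positions counted from the 5′ end and the base of let-7a first, let-7c differed by A19G, let-7e by U9G and let-7f by G12A. let-7b differed by A17G and A19G, let-7d by U1A and U16C, let-7g by G12U and U18C, and miR-98 by G11A and A19U. let-7i was the most distant, with G12U, A17G, U18C and A19U. Every one of these differences lay outside the seed.

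In the RefSeq annotation of the GRCm38.p6 build the members formed 3 tight clusters and several lone loci. let-7a-1 (chr13:48538239-48538260), let-7f-1 (chr13:48537889-48537910) and let-7d (chr13:48536078-48536099) lay on the minus strand, with 328 bases between the guides of let-7a-1 and let-7f-1 and 1789 bases between those of let-7f-1 and let-7d. let-7c-2 (chr15:85706616-85706637) and let-7b (chr15:85707325-85707346) lay 687 bases apart within the span of the long noncoding RNA gene Lncppara. let-7f-2 (chrX:151912353-151912374) and miR-98 (chrX:151913229-151913250) lay 854 bases apart within the span of Huwe1, a ubiquitin ligase gene. let-7e (chr17:17830366-17830387) lay within Spaca6 and let-7g (chr9:106178846-106178867) within Wdr82. let-7i (chr10:122985698-122985719) and let-7c-1 (chr16:77599672-77599693) lay within no other gene of the annotation. The array files, whose coordinates are on mm9, place the let-7a probes on chromosome 9 (chr9:41344817-41344836) as well as on chromosome 13. Since let-7a, let-7c and let-7f guides each come from more than a single locus, the array cannot tell apart the loci of any of these 3.

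Each member had 2 probes, which paired with the miRNA from base 22 to a first base between 1 and 5, covering the seed in whole or in part, and differed by 1 base in length. The brighter probe of let-7a-5p had 1 mismatch with 4 other members (let-7c, let-7d, let-7e and let-7f), that of let-7c-5p with 2 (let-7a and let-7b), and those of let-7b-5p, let-7d-5p, let-7e-5p and let-7f-5p with 1 other member each. The brighter probes of let-7g-5p, let-7i-5p and miR-98-5p had at least 2 mismatches with every other member. The probes of let-7a and let-7c are shown because a single base, in capitals, separates them over their common length, apart from a last base that let-7c's probe lacks.
let-7a-5p probe: aacTatacaacctactacct
let-7c-5p probe: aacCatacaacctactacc
How far such probes share signal was not tested, so differences between close members are uncertain.

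Values below are scaled signals, the mean background-subtracted intensity of a probe's spots divided by the 75th percentile of its array. That percentile was 468.9 in H+G-Exo, 235.0 in H-Exo and 417.3 in N-Exo, and the detected miRNAs numbered 678, 586 and 687 in the same order. A miRNA took the value of its brighter probe and was said to fall or rise where both arrays detected it and the difference was at least 2-fold and, as log2, larger than 2 standard errors (SE) over spots. All 9 members were detected on every array. Of the stromal markers looked at, 5 or 6 of 6 were detected on each array, while both miR-126a strands of endothelium were not well above background on any.

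Every member had its lowest scaled signal in H+G-Exo, a middle one in H-Exo and its highest in N-Exo. In scaled signal, the spots of no array overlapped those of another for any of the 9. The share of all measured miRNAs without such overlap was not counted. Before scaling let-7g-5p read 908.7 ± 44.0 in H+G-Exo and 918.8 ± 43.2 in H-Exo. In the same order let-7b-5p read 6839 ± 196 and 7205 ± 149, and let-7c-5p 5724 ± 259 and 6741 ± 319. The values of let-7i-5p were 1804 ± 61.3 and 1902 ± 59.8. For let-7b, let-7c, let-7g and let-7i the spots of these arrays overlapped before scaling, so their separation rested on the scaling. let-7a-5p had a scaled signal of 4.04 ± 0.214 in H+G-Exo, 12.5 ± 0.171 in H-Exo and 26.5 ± 0.678 in N-Exo. let-7f-5p, linked in human endothelial cells to sprouting, read 2.79 ± 0.146 in H+G-Exo, 8.90 ± 0.912 in H-Exo and 19.7 ± 0.761 in N-Exo. let-7d-5p, whose loss in mouse lung goes with fibrotic change, read 2.26 ± 0.129 in H+G-Exo, 7.64 ± 0.292 in H-Exo and 13.9 ± 0.444 in N-Exo. These 3 members thus kept the same order over the arrays, and all have a gene in the chromosome 13 cluster, though let-7a and let-7f have further loci.

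let-7b and let-7c, which share the chromosome 15 cluster, had the same order with a smaller step between the hypoxic arrays. let-7b-5p, which restrains neural stem cell proliferation in mice, read 14.6 ± 0.418 in H+G-Exo, 30.7 ± 0.632 in H-Exo and 63.1 ± 2.31 in N-Exo. let-7c-5p, studied in macrophage polarization in mice, read 12.2 ± 0.551 in H+G-Exo, 28.7 ± 1.36 in H-Exo and 59.97 ± 2.61 in N-Exo. On chromosome X, next to let-7f-2, miR-98-5p read 0.123 ± 0.0127 in H+G-Exo, 0.380 ± 0.0293 in H-Exo and 0.681 ± 0.0409 in N-Exo. Before scaling, miR-98-5p was 57.8 in H+G-Exo, 89.2 in H-Exo and 284.4 in N-Exo, well over the negative control spots, whose medians were 0.834, 0.678 and -0.139 on these arrays.

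The lone loci kept this order too. let-7e-5p, part of the endotoxin response of mouse macrophages, read 2.47 ± 0.118 in H+G-Exo, 8.50 ± 0.310 in H-Exo and 15.3 ± 0.542 in N-Exo. let-7g-5p read 1.94 ± 0.0939 in H+G-Exo, 3.91 ± 0.184 in H-Exo and 7.08 ± 0.248 in N-Exo. let-7i-5p, a regulator of TLR4 in human biliary cells, read 3.85 ± 0.131 in H+G-Exo, 8.09 ± 0.255 in H-Exo and 19.3 ± 1.09 in N-Exo. Over the 9 members the coefficient of variation over spots ran from 2.86% to 10.3% in H+G-Exo, from 1.37% to 10.2% in H-Exo and from 2.55% to 6.00% in N-Exo, with 13 to 15 spots each.

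**Figure D1:**
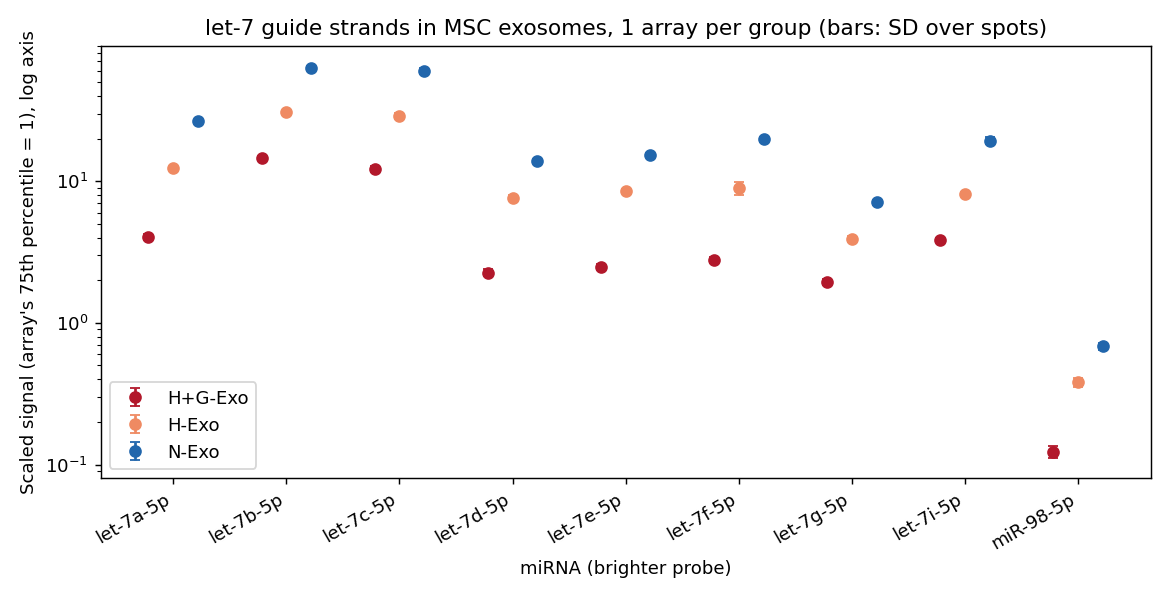
Scaled signal of each let-7 guide strand (log axis, array's 75th percentile set to 1) in H+G-Exo, H-Exo and N-Exo, points for the mean and bars for the SD over 13 to 15 spots of 1 array. Each member steps up through H+G-Exo, H-Exo and N-Exo, as let-7a-5p does at 4.04, 12.5 and 26.5.

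A share of each array's own summed signal, which is itself a scaling by that array's total, gave the same order. The probes of the 9 members held 1.74% of the summed signal of all detected miRNA probes in H+G-Exo, 3.79% in H-Exo and 8.72% in N-Exo. Before scaling, the brighter probes of the members summed to 20755 in H+G-Exo, 25671 in H-Exo and 94165 in N-Exo. The step between the hypoxic arrays was thus smaller before scaling than in the share. In exosome RNA, fewer vesicles and fewer copies per vesicle cannot be told apart.

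H-Exo was set against N-Exo to describe how the exosomal cargo differed after hypoxia alone. With 1 array per group, a treatment cannot be told apart from the preparation or the array. All 9 members were lower in H-Exo, and 5 of the 9 fell by the 2-fold rule, beside 10.7% of the 582 miRNAs measured on both arrays that fell and 4.30% that rose. let-7i-5p fell 2.38-fold, let-7f-5p 2.21-fold, let-7a-5p 2.13-fold, let-7c-5p 2.09-fold and let-7b-5p 2.06-fold. The other 4 did not pass: let-7d-5p stood 1.83-fold lower, let-7g-5p 1.81-fold, let-7e-5p 1.80-fold and miR-98-5p 1.79-fold. The members' median log2 difference was -1.04, against 0.34 for all measured miRNAs, and single members lay between the 6.53rd (let-7i-5p) and the 13.7th percentile (miR-98-5p) of them.

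In the order of these log2 differences, let-7i-5p (-1.25, SE 0.02) stood apart from let-7f-5p (-1.15, SE 0.04) by more than 2 SE over spots. let-7f-5p, let-7a-5p (-1.09), let-7c-5p (-1.06) and let-7b-5p (-1.04) did not differ from their neighbours in the order beyond that error. A gap of 0.17 (SE 0.02) followed, and then let-7d-5p (-0.87), let-7g-5p (-0.86), let-7e-5p and miR-98-5p (both -0.84) again lay within error of their neighbours. The dimmer probes read -1.13 for let-7a-5p, -1.04 for let-7g-5p and -0.97 for let-7e-5p, so this gap depended on the probe. Both calls and size rested on the scaling: before scaling the falls ran from 3.19-fold for miR-98-5p to 4.23-fold for let-7i-5p, and all 9 passed the rule, as they did with spike-in scaling, while quantile normalization left 4. Without scaling 134 of all measured miRNAs fell and 1 rose, against 62 and 25 as scaled here. The share that fell was 17.0% with labelling spike-ins, 23.4% with hybridization spike-ins and 11.3% with quantile normalization. Relative to the median of all measured miRNAs that of the members lay between -1.45 and -1.17 under every setting. A factor applied to a whole array moves both medians alike, so only the other settings could change this distance much.

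H+G-Exo was set against H-Exo to find the effect of adding the inhibitor. All 9 members fell, beside 26.1% of the 566 measured miRNAs that fell and 6.18% that rose. let-7e-5p fell 3.44-fold, let-7d-5p 3.37-fold, let-7f-5p 3.19-fold, let-7a-5p 3.09-fold and miR-98-5p 3.08-fold. let-7c-5p fell 2.35-fold, let-7i-5p and let-7b-5p both 2.10-fold and let-7g-5p 2.02-fold. The members' median log2 difference was -1.62, against -0.42 for all measured miRNAs, and members lay between the 3.36th (let-7e-5p) and the 25.4th percentile (let-7g-5p).

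The members' log2 differences here spanned 0.77, against 0.41 in H-Exo against N-Exo. This order of the spans depended on the processing: it was 0.74 against 0.87 with normexp, and 0.82 against 0.79 in the authors' deposited table. let-7e-5p (-1.78, SE 0.02), let-7d-5p (-1.75), let-7f-5p (-1.68), let-7a-5p (-1.63) and miR-98-5p (-1.62, SE 0.05) each lay within 2 SE of the next. A gap of 0.39 (SE 0.05) separated them from let-7c-5p (-1.23), followed by let-7i-5p and let-7b-5p (both -1.07) and let-7g-5p (-1.01). This gap does not change when a whole array is multiplied by a factor. It had the same members on either side, at 0.36 to 0.44, under every alternative but normexp background correction, which adds an offset of 50 and put let-7c-5p in place of dim miR-98-5p, with a gap of 0.16.

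The call, unlike the gap, depended on the scaling. Before scaling let-7g-5p read 908.7 in H+G-Exo and 918.8 in H-Exo, a 1.01-fold difference, and let-7e-5p, the farthest apart, read 1160.03 in H+G-Exo and 1998 in H-Exo, a 1.72-fold difference. So 0 of 9 passed the 2-fold rule without scaling or with hybridization spike-ins, 3 with labelling spike-ins, and 5 with the 75th percentile over all probes, the median, quantile normalization or the authors' deposited table. All 9 were lower in H+G-Exo under each of these, let-7g-5p without scaling by less than its error over spots. The scaling moved the other miRNAs too: 148 fell and 35 rose as scaled here, whereas 7 fell and 185 rose without scaling. The share of all measured miRNAs that fell was 1.23% without scaling, 2.82% with hybridization and 6.35% with labelling spike-ins. In the settings named above with 5 members it was 15.5% to 21.5%. The median of all measured miRNAs shifted with the setting, lying between -0.42 and 0.57, and relative to it the members' median lay between -1.26 and -0.78. Here too, scaling by a single factor per array moves both medians alike.

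H+G-Exo against N-Exo takes both treatments together, and it reuses the arrays above, so it adds no independent value. All 9 members fell, beside 26.1% of the 606 measured miRNAs that fell and 18.3% that rose. let-7f-5p fell 7.07-fold, let-7a-5p 6.57-fold, let-7e-5p 6.17-fold, let-7d-5p 6.16-fold and miR-98-5p 5.53-fold. let-7i-5p fell 5.01-fold, let-7c-5p 4.91-fold, let-7b-5p 4.33-fold and let-7g-5p 3.65-fold. The median log2 difference was -2.47, against -0.05 for all measured miRNAs, and members lay between the 2.48th (let-7f-5p) and the 12.7th percentile (let-7g-5p). Within the order, let-7e-5p and let-7d-5p did not differ beyond 2 SE over spots, nor did let-7i-5p and let-7c-5p, and the other neighbours did. All 9 passed the rule under each of the 12 alternatives, under which 16.1% to 27.0% of all measured miRNAs fell. Over all measured miRNAs 158 fell and 111 rose, and median scaling turned this to 123 and 163.

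**Figure D2:**
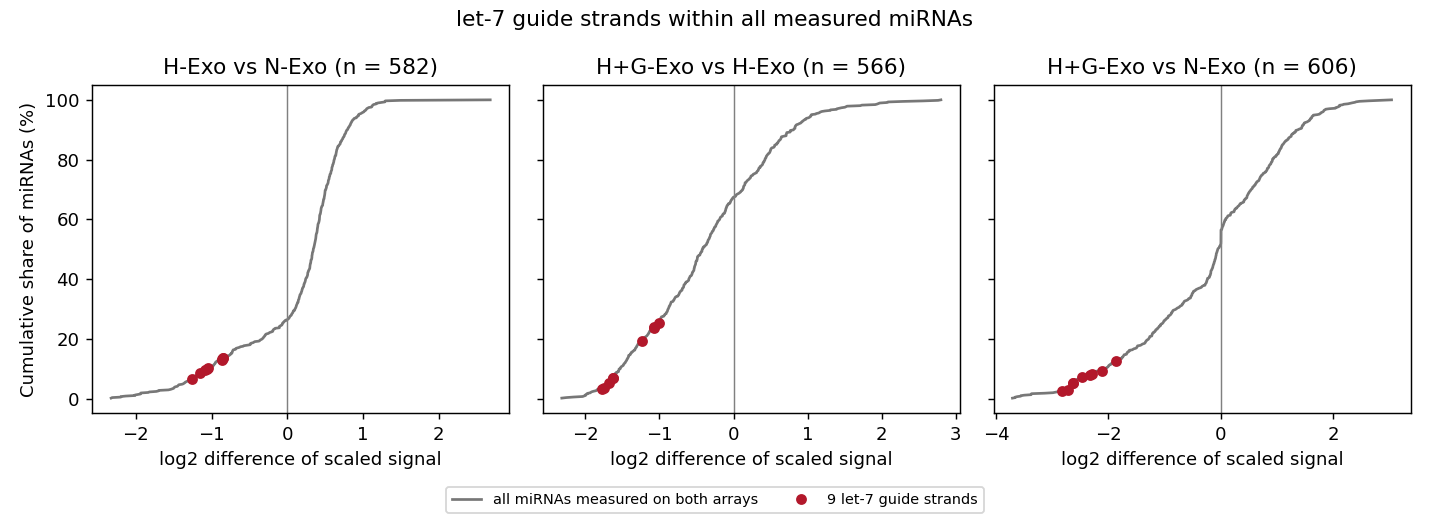
Cumulative share (%) of all miRNAs measured on both arrays by their log2 difference of scaled signal (grey line), with the 9 let-7 guide strands as red points, in H-Exo vs N-Exo, H+G-Exo vs H-Exo and H+G-Exo vs N-Exo. The members lie at the low end, at or below the 25.4th percentile in each panel, and the step at 0 in the last panel is from miRNAs at the floor on both arrays.

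The dimmer probe of each member gave the same sign in all 3 comparisons. In H-Exo against N-Exo it read a larger fall than the brighter probe for all 9 members, by 0.02 (miR-98-5p) to 0.18 (let-7g-5p) on the log2 scale, beyond 2 SE for 6 of them. By the dimmer probe 6 members were at least 2-fold lower there, let-7g-5p being added at -1.04. In H+G-Exo against H-Exo the 2 probes differed beyond 2 SE only for let-7b-5p, at -1.07 and -1.01, and for let-7i-5p, at -1.07 and -1.22, brighter probe first, and all 9 dimmer probes read at least 2-fold lower.

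**Figure D3:**
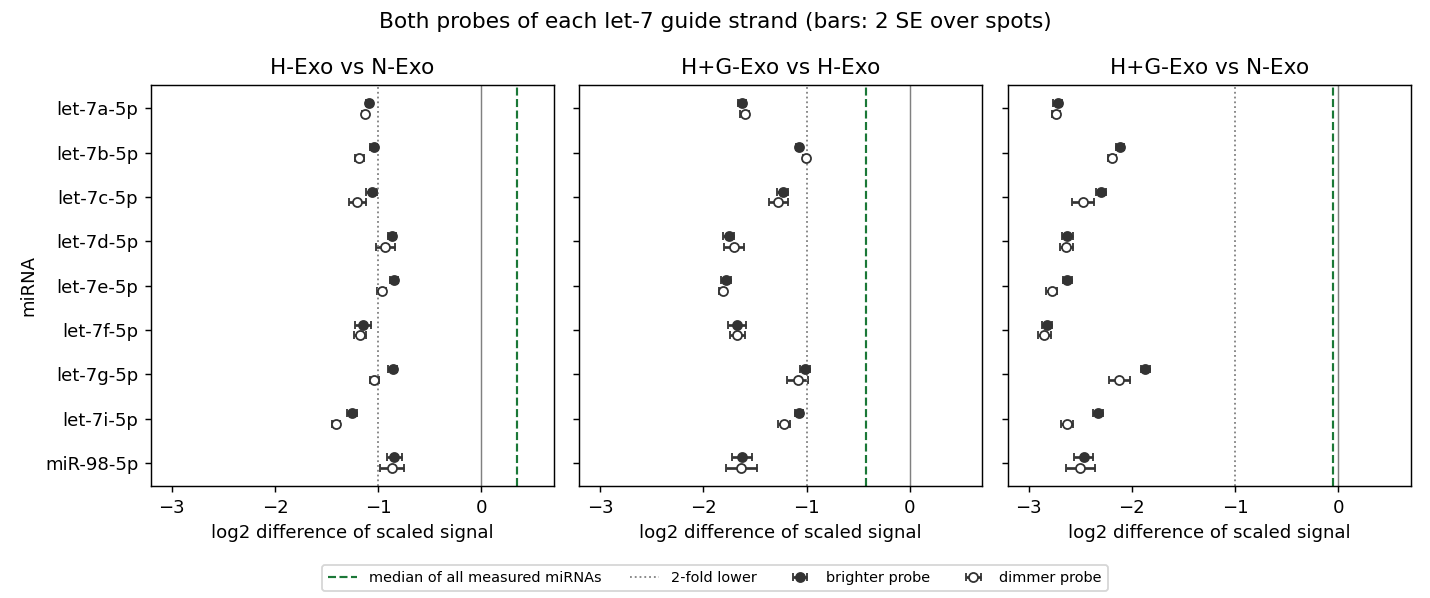
log2 difference of scaled signal for the brighter (filled) and dimmer (open) probe of each let-7 guide strand in H-Exo vs N-Exo, H+G-Exo vs H-Exo and H+G-Exo vs N-Exo, with bars of 2 SE over spots, the median of all measured miRNAs (dashed) and the 2-fold line (dotted). All points lie left of the dashed line, and in the middle panel let-7b, let-7c, let-7g and let-7i lie nearer to it.

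Neighbours in the genome were not always the closest in value. In H+G-Exo against H-Exo, let-7f-5p and miR-98-5p differed by -0.05 (SE 0.06), within error, while after hypoxia let-7f-5p read 0.30 (SE 0.05) lower than miR-98-5p on the log2 scale. let-7a-5p and let-7f-5p, from the same cluster and 1 base apart, lay within error of each other in both of these comparisons. let-7c-5p and let-7b-5p, also 1 base apart, lay within error after hypoxia, and with GW4869 let-7c-5p read 0.16 (SE 0.03) lower than let-7b-5p. let-7a-5p and let-7c-5p, again 1 base apart, lay within error after hypoxia, and with GW4869 let-7a-5p read 0.39 (SE 0.03) lower. let-7g-5p and let-7i-5p showed the reverse by the brighter probes: with GW4869 they lay within error, and after hypoxia let-7i-5p was lower by 0.40 (SE 0.03). Their dimmer probes stood further apart with GW4869, at -1.08 (SE 0.05) for let-7g-5p and -1.22 (SE 0.03) for let-7i-5p.

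Values of other kinds were set beside these falls. The brighter probes of the members had a GC content of 31.8% to 47.4%, against a median of 60% for the 562 miRNAs detected on all 3 arrays. Across all measured miRNAs the log2 difference went with probe GC content (Spearman's rho 0.44 after hypoxia and 0.42 with GW4869, over miRNAs that share arrays). Over the 9 members rho was -0.24 and 0.27. In H+G-Exo against N-Exo rho was 0.49 over all measured miRNAs and 0.47 over the members. The unscaled signals of the 6 stromal markers, among them miR-21a-5p and miR-199a-3p, summed to 15858 in H+G-Exo, 20889 in H-Exo and 89576 in N-Exo, and the 9 members to 20755, 25671 and 94165 in the same order. miR-21a-5p alone made up 88.0% of the stromal sum in H+G-Exo, 91.2% in H-Exo and 88.7% in N-Exo. Without it the sum was 1909 in H+G-Exo, 1849 in H-Exo and 10136 in N-Exo. So before scaling the other 5 markers together were no lower with GW4869 added, but they did not move alike. miR-214-3p read 1170 in H+G-Exo and 880 in H-Exo, and miR-199a-3p read 488 in H+G-Exo and 714 in H-Exo. Of the 5 stromal markers measured on both of these arrays, miR-21a-5p included, 3 were lower and 2 higher before scaling. As scaled, 5 of 5 stromal markers measured on both arrays fell after hypoxia and 3 of 5 with GW4869, where without scaling 0 of 5 were 2-fold lower. Of all measured miRNAs, 10.7% fell after hypoxia and 26.1% with GW4869 as scaled, and 1.23% with GW4869 without scaling. The part of GC content or of vesicle amount in the falls was not tested. Before scaling the 7 blood cell markers, undetected ones included, summed to 80.2 in H+G-Exo, 82.1 in H-Exo and 117.8 in N-Exo, with 3 of 7 detected on at least 1 array. These 3 did not move alike. In the same order miR-451a read 22.5, 46.3 and 63.7, and miR-223-3p 28.9, 22.2 and 32.7. miR-486a-5p, detected in H+G-Exo alone, read 29.5, 11.7 and 16.2. Of the 2 liver and serum markers, miR-122-5p was well above background on 0 of 3 arrays, and miR-192-5p was detected in N-Exo, at 40.5 before scaling, and not in H+G-Exo (17.5) or H-Exo (15.9).

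The passenger (3p) strands, which are mostly degraded once the guide is loaded into Argonaute, were nearly absent. Of 12 named 3p strands of these genes 11 were on the array and 2 were detected, both on all arrays. let-7b-3p read 0.0750 ± 0.00334 in H+G-Exo, 0.101 ± 0.0134 in H-Exo and 0.0831 ± 0.0107 in N-Exo, and let-7f-1-3p read 0.0681 ± 0.00819, 0.0972 ± 0.00808 and 0.0776 ± 0.00916 in the same order. Neither passed the rule in any comparison, and both were highest in H-Exo, unlike their guides, though before scaling H-Exo was lowest for both. They lay close to the floor of 0.0653, the highest of the lowest detected signals of the 3 arrays.

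RefSeq held 2 further mouse miRNAs with the same seed. let-7k (uGAGGUAGgagguugugug) was detected in N-Exo alone, at 25.4 before scaling, against 11.7 in H+G-Exo and 8.65 in H-Exo, where it was not well above background. miR-1961 (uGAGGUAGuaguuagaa) was detected on no array. The same held for let-7j (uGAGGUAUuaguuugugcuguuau), whose bases 2 to 8 differ from the family seed at the last base.

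let-7 genes share transcripts with miR-99, miR-100 and miR-125 genes, so the 5p strands of these were looked at as a group. Of the 5, 2 fell in H-Exo against N-Exo (median log2 difference -0.98), 4 with GW4869 against hypoxia alone (-1.42) and 5 when both treatments were set against normoxia (-2.19). In the same order 10.7%, 26.1% and 26.1% of all measured miRNAs fell, with medians of 0.34, -0.42 and -0.05. Without scaling, 1 of the 5, miR-125a-5p at 334.2 in H+G-Exo and 799.4 in H-Exo, was 2-fold lower with GW4869, and miR-100-5p was higher, at 414.5 in H+G-Exo and 327.3 in H-Exo. Without scaling, both hypoxic arrays had all 5 at least 2-fold lower relative to N-Exo. let-7e, miR-99b and miR-125a come from the same transcript. After hypoxia their log2 differences were -0.84, -0.30 and -0.33, none past the rule, and with GW4869 all 3 fell as scaled, at -1.78, -1.42 and -2.26. miR-125a-5p, of the lin-4 family, read 0.713 ± 0.0301 in H+G-Exo, 3.40 ± 0.179 in H-Exo and 4.29 ± 0.194 in N-Exo, and miR-99b-5p, named here because it shares that transcript, read 0.763 ± 0.0693, 2.04 ± 0.155 and 2.51 ± 0.173. miR-99a-5p, a neighbour of let-7c-1, read 0.0789 ± 0.0115 in H+G-Exo, 0.217 ± 0.0161 in H-Exo and 0.995 ± 0.0331 in N-Exo, a 12.6-fold fall in H+G-Exo against N-Exo. miR-125b-5p stood 4.55-fold and miR-100-5p 3.77-fold lower in that comparison.

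miR-196a-5p, miR-196b-5p and miR-202-3p have 5′ ends that resemble let-7. miR-196a-5p and miR-196b-5p, from the Hox clusters, fell in every comparison as scaled, and in H+G-Exo against N-Exo they were 5.61-fold and 6.08-fold lower. With GW4869 they did not pass 2-fold without scaling: miR-196a-5p read 753.7 in H+G-Exo and 774.8 in H-Exo, and miR-196b-5p 140.8 in H+G-Exo and 163.7 in H-Exo. miR-202-3p, a gonadal miRNA, went the other way, with 1.26 ± 0.160 in H+G-Exo, 0.617 ± 0.0780 in H-Exo and 0.460 ± 0.0763 in N-Exo. In H+G-Exo it rose 2.03-fold against H-Exo and 2.73-fold against N-Exo. Before scaling it read 588.8 in H+G-Exo, 145.04 in H-Exo and 192.03 in N-Exo, so only its order between H-Exo and N-Exo turned with the scaling.

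The miRNAs whose pattern over the 3 arrays was nearest to the members' median were looked up by the distance between log2 profiles, each centred on its own mean, among 553 others detected on all arrays. The 5 nearest were miR-15b-5p at 0.04, miR-151-5p at 0.08, miR-107-3p at 0.09, miR-669f-3p at 0.13 and miR-19a-3p at 0.17, against a median distance of 1.73 for all others. The members' own distances from their median ran from 0.10 for miR-98-5p to 0.49 for let-7g-5p. miR-15b-5p, of the cell-cycle-restraining miR-15/16 family, read 1.29 ± 0.0445 in H+G-Exo, 3.84 ± 0.166 in H-Exo and 7.56 ± 0.370 in N-Exo. miR-669f-3p read 0.0661 in H+G-Exo, close to the floor of 0.0653. With 3 arrays, such a likeness rests on 3 points.

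**Figure D4:**
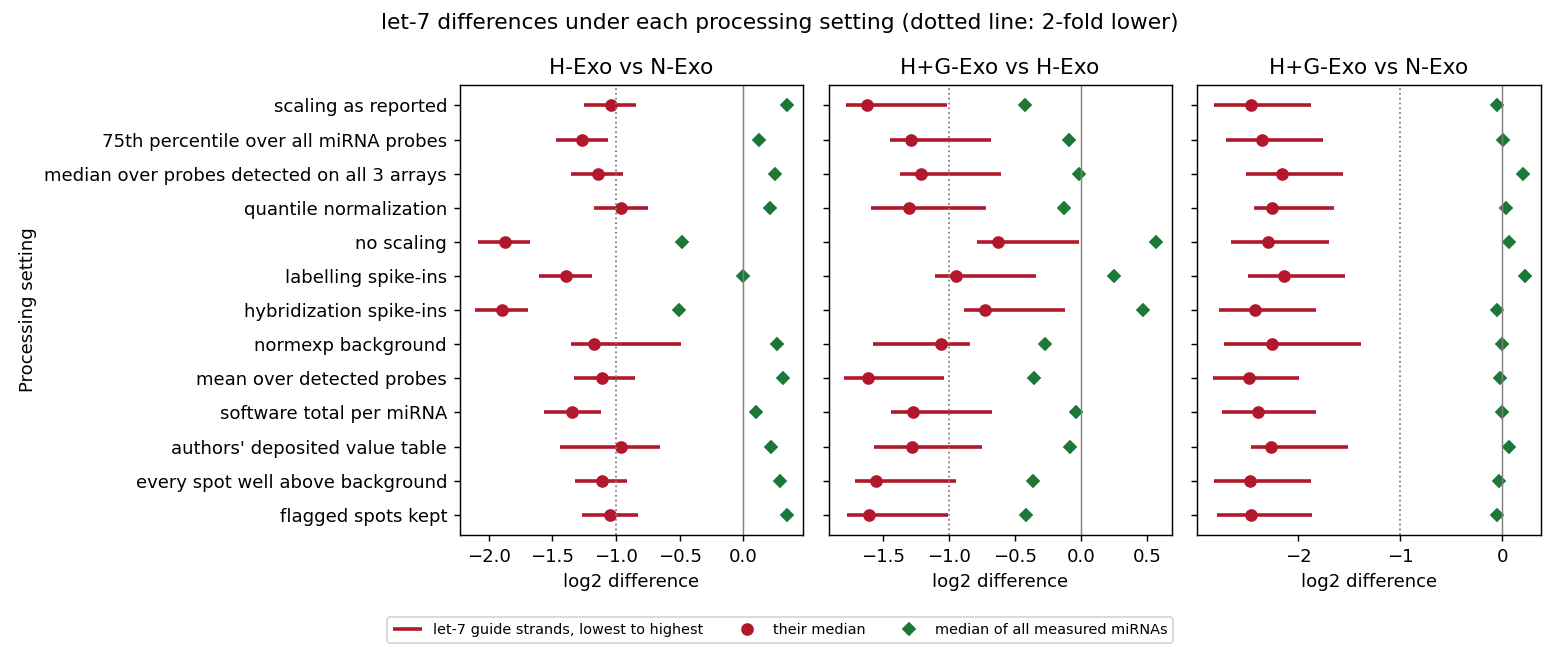
log2 differences of the 9 let-7 guide strands (red line from lowest to highest, red point for their median) and the median of all measured miRNAs (green diamonds) under the reported processing and 12 alternatives, for H-Exo vs N-Exo, H+G-Exo vs H-Exo and H+G-Exo vs N-Exo. The red points lie left of the green ones in every row, and in the middle panel the red point crosses the dotted 2-fold line without scaling and with either kind of spike-in. Scaling an array by a single factor hardly changes the distance between red and green points.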

How the data were processed

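RNA from exosomes of 3 groups, 1 array each, was hybridized to 1-colour Agilent mouse miRNA arrays. Per the file headers, spots were read out in Feature Extraction 10.7.1.1 (Agilent), and the deposited intensity values are background-subtracted and not scaled between arrays. All arrays share a slide and a scan time. The labels' protocols name cRNA amplification and cDNA kits, and the labelling of the RNA is therefore unclear. Although the series text mentions 3 samples for each exosome kind, only 1 array each was analysed here, and pooling is not mentioned. The series' deposited value table, read as log2 values with its normalization not given, served as an alternative, as did the software's total intensity per miRNA.

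Of 58594 spots per array, 2164 control spots and 1369 to 1568 flagged outlier spots were left out, 7 to 12 of the latter among 270 member spots, and 0 spots were saturated. A probe was detected where over 50% of its spots were well above background. Its mean was divided by the 75th percentile over probes detected on all 3 arrays, and values under 0.0653 were raised to that floor before log2. Values were computed with Python 3.11.15, numpy 2.4.6, pandas 2.3.3 and, for normexp, limma 3.58.1. The calling rule was tested on simulated data made from the N-Exo array. These held only spot noise, set changes and a factor per array. The simulation therefore could not test the rule against other variation between preparations or arrays. Precision is limited by having 1 array per group. The members and lists were chosen with earlier results of these data known. The text names all 9 members, up to 4 of each list by their difference in H+G-Exo against N-Exo, and the 5 nearest patterns. miR-99b-5p and the single markers fall outside this rule and were picked after their values were seen. Mature sequences and positions are RefSeq's, on GRCm38.p6, which the array design (mm9) does not use.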

Additional observations from a re-analysis of the deposited data

How the results depend on the processing

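All 9 members were lower in the first-named group of H-Exo against N-Exo, H+G-Exo against H-Exo and H+G-Exo against N-Exo under each of the 12 alternatives. Without scaling, though, let-7g-5p stood at -0.016 in H+G-Exo against H-Exo, within its SE of 0.025 over spots. In H-Exo against N-Exo the count that fell, 5 as reported, was 9 without scaling, under either kind of spike-in, in the software's totals and with all probes in the 75th percentile, 4 with quantile normalization and in the authors' deposited table, and 5 otherwise. Its median of -1.04 was -1.87 without scaling, -1.89 under hybridization and -1.39 under labelling spike-ins, -1.26 with all probes in the percentile, -1.14 under median scaling, -0.96 for quantile values and the authors' deposited table, -1.17 with normexp, -1.11 with the mean over probes or every spot well above background, and -1.35 in the software's totals. In H+G-Exo against H-Exo the count of 9 was 5 with the 75th percentile over all probes, the median, quantile normalization, normexp, the software's totals and the authors' deposited table, 3 using labelling spike-ins, 0 using hybridization spike-ins or no scaling, and 8 with every spot well above background. Its median of -1.62 was in turn -1.29, -1.21, -1.30, -1.06, -1.27, -1.28, -0.95, -0.73, -0.63 and -1.56. In H+G-Exo against N-Exo the count stayed 9, and the median of -2.47 was -2.30 without scaling, -2.14 under labelling spike-ins, -2.35 with all probes in the percentile, -2.16 under median scaling, -2.26 for quantile values, -2.25 with normexp, -2.40 in the software's totals and -2.27 in the authors' deposited table. Relative to the median of all measured miRNAs, the members' median lay between -1.45 and -1.17, between -1.26 and -0.78, and between -2.46 and -2.25 in these comparisons. Settings that only multiply an array by a factor hardly change these distances, because both medians move alike. Among all measured miRNAs, 62 fell and 25 rose in H-Exo against N-Exo, against 134 and 1 without scaling. In H+G-Exo against H-Exo 148 fell and 35 rose, against 7 and 185 without scaling, and in H+G-Exo against N-Exo 158 fell and 111 rose, against 123 and 163 under median scaling. No paired analysis was possible because each group is 1 array, and no array could be left out for the same reason.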
